A study of Mus musculus with 10 samples.

Results

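Transglutaminases cross-link proteins, and peptidylarginine deiminases convert arginine residues of proteins to citrulline. The members were 9 genes, the transglutaminase genes Tgm1, Tgm2, Tgm3, Tgm5 and Tgm6 and the deiminase genes Padi1, Padi2, Padi3 and Padi4. Each was represented by its probe set with a single gene symbol in the platform annotation, and by the one with the highest mean over the arrays where a gene had several. They are 9 of the 19938 genes that have such a probe set, in a table of 35556 probe sets. RNA came from dispase-separated epidermis of 3-day-old littermate mice, with 1 array per mouse and 5 mice per genotype. ILK-deficient mice (K14Cre;Ilk f/f) carried floxed Ilk on both alleles, and ILK-expressing mice (K14Cre;Ilk f/+) carried it on a single allele. Both genotypes carried the KRT14-cre transgene (heterozygous in the labels, hemizygous in the study's methods), in which the keratin 14 promoter drives Cre in keratinocytes, and both came from crosses of Ilktm1Star with Tg(KRT14-cre)1Amc/J mice. A log2 value of the deposited table is used throughout, 1 value pools the exons of a transcript, and a change is the ILK-deficient mean minus the ILK-expressing mean. Since the tissue is a mixture, fewer cells of a type and less RNA per cell cannot be told apart.

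In the upper epidermis, transglutaminases join proteins such as loricrin and involucrin into the cornified envelope, the insoluble shell of the dead surface cells. Deiminases change the charge of keratins and filaggrin there. In the hair follicle both enzyme families act on trichohyalin, the protein that hardens the inner root sheath and the medulla of the hair shaft. In humans, variants of TGM1 cause ichthyosis, variants of TGM5 cause acral peeling skin, and variants of PADI3, TGM3 or TCHH cause uncombable hair.

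For 5 of the 9 members, no array of one genotype overlapped the other, against 5.75% of all 35556 probe sets. The sequence around the annotated start sites of these 5 is shown. Of them, Padi1 did not pass the test given below, and Tgm6 had too low a signal to enter it. Each run holds 250 bases before and 50 bases after the RefSeq start in GRCm38.p6, 5′ to 3′ on the strand of the gene. Tgm3 is at chr2:130012090-130012389 (+), Tgm5 at chr2:121085792-121086091 (-) and Tgm6 at chr2:130112166-130112465 (+), the first of 2 windows of that gene. Padi1 is at chr4:140845729-140846028 (-) and Padi3 at chr4:140810599-140810898 (-). Capitals mark 4 motifs searched on both strands. They are the TATA box with the letters TATAAA, the box bound by NF-Y with the letters CCAAT, the GC box with the letters GGGCGG, and the AP-1 site with the letters TGANTCA. A motif on the other strand stands as its reverse complement, such as ATTGG for CCAAT.
Tgm3: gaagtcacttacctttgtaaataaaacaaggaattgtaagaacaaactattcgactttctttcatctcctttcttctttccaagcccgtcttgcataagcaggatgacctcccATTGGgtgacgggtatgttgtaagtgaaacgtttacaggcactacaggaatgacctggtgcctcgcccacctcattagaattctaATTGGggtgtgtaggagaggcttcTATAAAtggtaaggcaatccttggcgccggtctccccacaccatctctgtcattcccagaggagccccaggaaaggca
Tgm5: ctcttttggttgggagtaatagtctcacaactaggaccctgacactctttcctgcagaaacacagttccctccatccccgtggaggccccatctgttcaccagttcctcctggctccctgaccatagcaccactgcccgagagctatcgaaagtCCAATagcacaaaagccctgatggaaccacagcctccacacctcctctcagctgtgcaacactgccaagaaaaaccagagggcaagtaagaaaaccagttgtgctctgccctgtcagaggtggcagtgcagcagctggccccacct
Tgm6: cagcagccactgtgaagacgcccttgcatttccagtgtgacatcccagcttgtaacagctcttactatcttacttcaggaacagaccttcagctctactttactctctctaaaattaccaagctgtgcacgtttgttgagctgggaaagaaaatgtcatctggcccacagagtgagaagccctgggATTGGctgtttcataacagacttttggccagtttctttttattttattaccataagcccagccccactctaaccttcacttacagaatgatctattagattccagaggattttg
Padi1: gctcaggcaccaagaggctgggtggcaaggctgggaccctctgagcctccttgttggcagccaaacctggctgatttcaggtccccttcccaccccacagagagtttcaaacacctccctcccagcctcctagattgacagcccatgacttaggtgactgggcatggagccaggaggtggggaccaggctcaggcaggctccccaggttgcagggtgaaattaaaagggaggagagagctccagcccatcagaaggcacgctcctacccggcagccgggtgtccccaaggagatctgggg
Padi3: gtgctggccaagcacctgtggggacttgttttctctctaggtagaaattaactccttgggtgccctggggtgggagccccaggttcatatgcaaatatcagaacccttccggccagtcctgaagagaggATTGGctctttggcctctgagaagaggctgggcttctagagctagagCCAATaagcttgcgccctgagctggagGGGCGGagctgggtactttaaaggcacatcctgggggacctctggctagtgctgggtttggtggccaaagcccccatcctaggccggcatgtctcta
The Tgm3 window held TATAAA 28 bases before the start and CCAAT at 137 and 52 bases before it. The Padi3 window held CCAAT at 121 and 74 bases and GGGCGG at 47 bases before the start. The Tgm5 and Tgm6 windows each held 1 CCAAT, at 96 and 64 bases before the start, and the Padi1 window held none of the 4 motifs. Of 32851 windows of 300 bases in the RefSeq table, 13.6% held TATAAA, 37.4% held CCAAT (11.7% at least 2 times), 35.7% held GGGCGG and 7.81% held TGANTCA. These matches describe letters only. In the order of genes in GRCm38.p6, Padi6, Padi4, Padi3, Padi1 and Padi2 stand next to each other on chromosome 4. On chromosome 2, Tgm5 lies between Epb42 and Tgm7, and Tgm3 and Tgm6 are separated by AU015228.

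Array medians lay between 7.07 and 7.17, and pairs of arrays correlated at 0.971 to 0.992 across probe sets. Ilk itself, measured by a probe set that pools exons, lay between 8.75 and 9.07 in ILK-deficient and between 9.01 and 9.38 in ILK-expressing epidermis, with overlap. Its change was -0.23 (adjusted p = 0.253 from limma), so this pooled value checks the labels little. The summed linear values of 8 keratinocyte markers were 87369 to 92289 in ILK-deficient and 86363 to 96165 in ILK-expressing epidermis, so the labelled tissue carried its markers in both genotypes. Of these 8, 1 was called higher (Trp63, 0.35, adjusted p = 0.0204 from limma) and 1 lower (Krt14, -0.23, adjusted p = 0.0452 from limma). Markers of some other cell types also moved with genotype. Of 9 inner root sheath markers, 8 were lower, with sums of 1335 to 3729 in ILK-deficient and 11065 to 58913 in ILK-expressing epidermis. Of 7 hair cortex markers, 6 were lower, with sums of 762 to 1214 in ILK-deficient and 3823 to 23210 in ILK-expressing epidermis. Of 8 melanocyte markers, 5 were higher, with sums of 7623 to 13989 in ILK-deficient and 2458 to 5099 in ILK-expressing epidermis. Of 9 macrophage markers, 2 were higher, with sums of 2087 to 2512 in ILK-deficient and 1490 to 1935 in ILK-expressing epidermis. The part of these cell types in the members' results was not tested.

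Among the enzymes, Padi3 and Tgm3 were lower and Tgm5 was higher in ILK-deficient epidermis, while Tgm1 did not pass the test. Of the 9 members, 6 reached 50 on the linear scale on at least 5 of 10 arrays and entered the test, and 3 of these passed at an adjusted p under 0.05, 1 higher and 2 lower. Of all 32046 probe sets tested, 3.78% passed, 2.81% higher and 0.970% lower. Arrays of the genotypes were fully separated for 5 of the 9 members, 4 of them lower and 1 higher, against 5.75% of all 35556 probe sets (1.80% lower and 3.95% higher) and 6.33% of those tested. Tgm2, Tgm6 and Padi2 were below the filter.

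**Figure D1:**
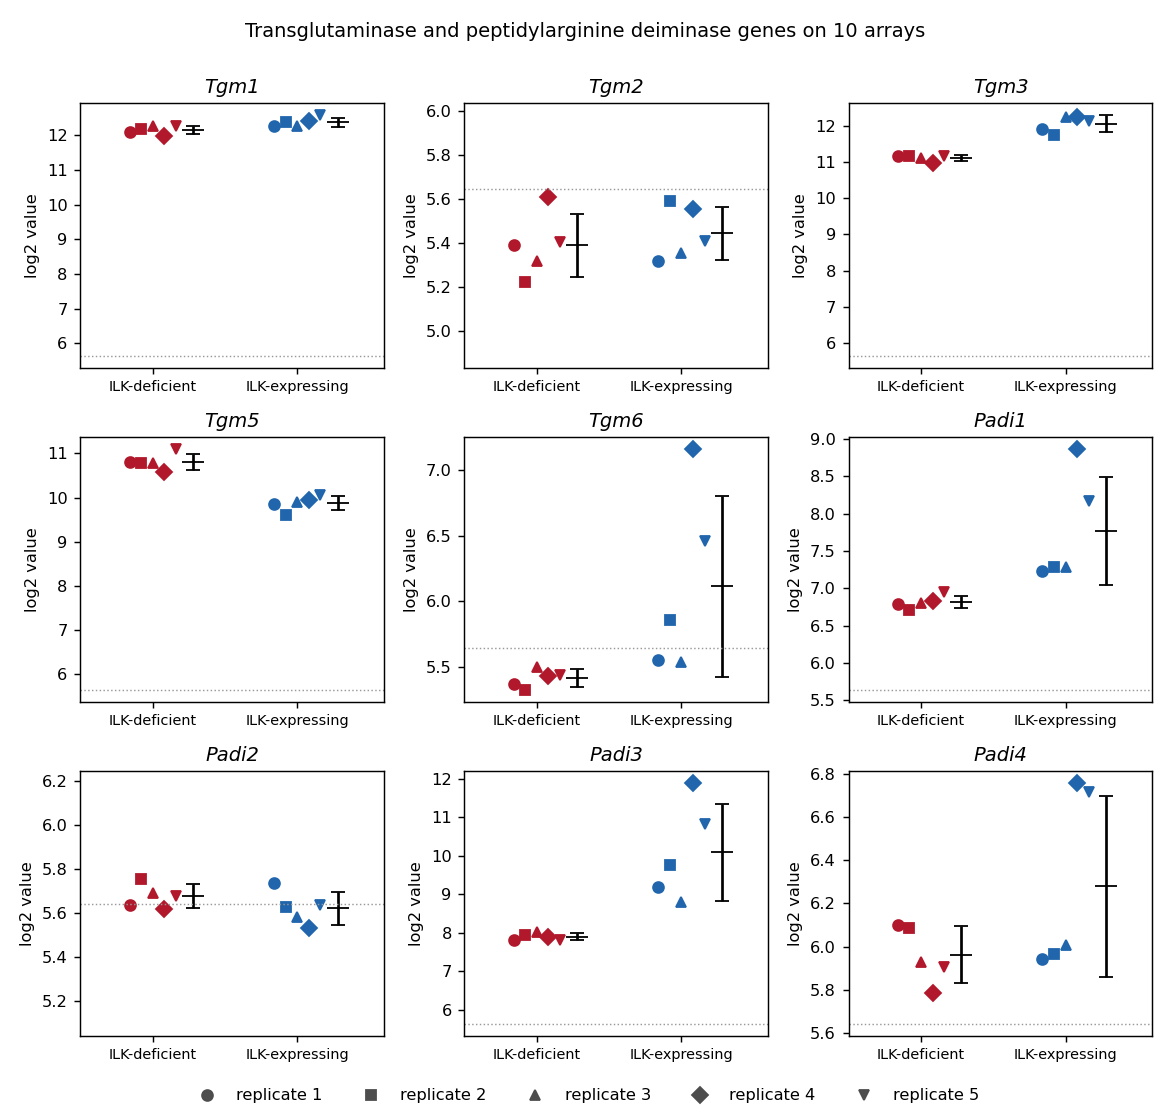
Log2 value (vertical axis, scaled for each gene) of the 9 genes on each array, ILK-deficient in red and ILK-expressing in blue, with the mean and SD (n = 5) beside the points and a dotted line at the linear value of 50. Tgm3, Tgm5, Tgm6, Padi1 and Padi3 show no overlap of genotypes, and for Padi1, Padi3, Padi4 and Tgm6 ILK-expressing replicates 4 and 5 stand above the other ILK-expressing arrays.

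Tgm1 encodes the membrane-anchored transglutaminase of the spinous and granular layers, which also attaches lipids to the cornified envelope. Its values were 12.11, 12.18, 12.27, 11.99 and 12.26 in ILK-deficient replicates 1 to 5, and 12.26, 12.38, 12.28, 12.41 and 12.58 in ILK-expressing replicates 1 to 5. The ranges of the genotypes overlapped narrowly, at the highest ILK-deficient and the lowest ILK-expressing arrays. The change was -0.22 (standard error 0.0804, 95% interval -0.40 to -0.04, adjusted p = 0.191 from limma). The exact permutation test of this single gene gave p = 0.0238, two-sided.

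Tgm3 encodes a transglutaminase of the granular layer and the hair follicle that is made as an inactive precursor and activated by cleavage. The log2 values were 11.17, 11.17, 11.11, 10.98 and 11.18 in ILK-deficient replicates 1 to 5, and 11.91, 11.74, 12.25, 12.26 and 12.14 in ILK-expressing replicates 1 to 5. The ILK-deficient arrays lay close together and all lay below every ILK-expressing array, with a gap of 0.57 between the nearest arrays. Tgm3 was 1.92-fold lower (change -0.94, standard error 0.104, adjusted p = 0.00203 from limma). It passed under each of 22 other settings, with changes from -1.02 to -0.86.

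Tgm5 encodes a transglutaminase of the upper epidermal layers that also acts on cornified envelope precursors. Its values were 10.80, 10.79, 10.79, 10.58 and 11.09 in ILK-deficient replicates 1 to 5, and 9.85, 9.61, 9.90, 9.95 and 10.05 in ILK-expressing replicates 1 to 5. Every ILK-deficient array was above every ILK-expressing array, and the gap between the nearest arrays was 0.53. The change was 0.94 (standard error 0.104, 95% interval 0.71 to 1.17, adjusted p = 0.00205 from limma), a 1.92-fold rise. Tgm5, too, passed under each of 22 other settings, with changes from 0.87 to 1.00. Of the genes beside it, Tgm7, a little-studied transglutaminase, had a change of 0.22 (adjusted p = 0.108 from limma) and its genotypes overlapped, and Epb42, which encodes an inactive relative in the red cell membrane, was below the filter. Tgm4, a prostate transglutaminase, and F13a1, the catalytic subunit of clotting factor XIII, were below it as well.

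Tgm2 encodes tissue transglutaminase, found in many cell types and in the extracellular matrix. Its log2 values were 5.39, 5.22, 5.32, 5.61 and 5.40 in ILK-deficient and 5.32, 5.59, 5.35, 5.55 and 5.41 in ILK-expressing epidermis, replicates 1 to 5. The linear value was below 50 on all 10 arrays and the genotypes overlapped. The change was -0.05 (exact permutation test, two-sided, p = 0.548), with an interval of -0.24 to 0.13 (95%) in the fit without a filter.

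Tgm6 encodes a transglutaminase known mainly from the nervous system. Its values were 5.36, 5.32, 5.50, 5.43 and 5.44 in ILK-deficient replicates 1 to 5, and 5.55, 5.86, 5.54, 7.16 and 6.46 in ILK-expressing replicates 1 to 5. No ILK-deficient array reached a linear value of 50, 3 ILK-expressing arrays did, and the nearest arrays of the genotypes were 0.04 apart. The change was -0.70 (exact permutation test, two-sided, p = 0.00794, the smallest that 5 arrays against 5 can give). That p follows from the lack of overlap and adds nothing to it. In the limma fit without a filter the adjusted p was 0.245.

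Padi1 encodes a deiminase of the living and cornified epidermal layers that acts on keratins. The log2 values were 6.79, 6.71, 6.81, 6.84 and 6.95 in ILK-deficient replicates 1 to 5, and 7.23, 7.29, 7.28, 8.86 and 8.17 in ILK-expressing replicates 1 to 5. The genotypes did not overlap, and the spread lay in the ILK-expressing arrays, where replicates 4 and 5 were high. The change of -0.95 did not pass (standard error 0.288, 95% interval -1.58 to -0.31, adjusted p = 0.110 from limma). The exact permutation test of this single gene gave p = 0.00794, two-sided, which follows from the lack of overlap and adds nothing to it. In the sample codes of the labels, 4 ILK-deficient and 3 ILK-expressing arrays have the prefix D. ILK-deficient replicate 5 and ILK-expressing replicates 4 and 5 have D' or C' instead. What the prefixes stand for is not given. Among the arrays with prefix D, the change of Padi1 was -0.48 and passed (adjusted p = 0.0315 from limma).

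Padi3 encodes the deiminase of the granular layer, the inner root sheath and the hair medulla, which acts on filaggrin and trichohyalin. Its values were 7.82, 7.95, 8.02, 7.88 and 7.83 in ILK-deficient replicates 1 to 5. In ILK-expressing replicates 1 to 5 they were 9.20, 9.76, 8.81, 11.88 and 10.81. The ILK-deficient arrays lay close together below all ILK-expressing arrays, which were spread widely with replicates 4 and 5 on top. Padi3 was 4.57-fold lower (change -2.19, standard error 0.490, 95% interval -3.28 to -1.10, adjusted p = 0.0355 from limma), the largest change of the 9 members. With any 1 array left out the change stayed between -2.51 and -1.74, and the call was lost in 7 of the 10 fits. Whichever ILK-deficient array was left out, the change stayed between -2.22 and -2.17 and the call was lost. It was lost without ILK-deficient replicate 1, 2, 3, 4 or 5 (adjusted p = 0.0806, 0.0750, 0.0641, 0.0727 and 0.0868 from limma) and without ILK-expressing replicate 2 or 5 (adjusted p = 0.0638 and 0.0701). Among the arrays with code prefix D, which leave out ILK-expressing replicates 4 and 5, the change was -1.34 and passed (adjusted p = 0.0330 from limma).

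Padi4 encodes a deiminase best known from neutrophils, where it acts on histones in the nucleus. Its log2 values were 6.10, 6.09, 5.93, 5.79 and 5.91 in ILK-deficient replicates 1 to 5, and 5.94, 5.97, 6.01, 6.76 and 6.72 in ILK-expressing replicates 1 to 5. Only ILK-expressing replicates 4 and 5 lay above all ILK-deficient arrays, and the other 3 overlapped them. The change came to -0.32 (adjusted p = 0.454 from limma, standard error 0.176), and it was 0.0024 (adjusted p = 0.997) among the arrays with code prefix D. The summed linear values of 10 neutrophil markers were 625 to 684 in ILK-deficient and 633 to 739 in ILK-expressing epidermis, and none of the 9 tested passed (1 of them was lower at p under 0.05 before adjustment, and the methods' analysis of variance called none).

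Padi2 encodes a deiminase of muscle, brain and many other tissues. Its values were 5.64, 5.76, 5.69, 5.62 and 5.68 in ILK-deficient and 5.74, 5.63, 5.58, 5.53 and 5.64 in ILK-expressing epidermis, replicates 1 to 5. It reached a linear value of 50 on 4 arrays, 3 ILK-deficient and 1 ILK-expressing, and the genotypes overlapped. The change was 0.05 (exact permutation test, two-sided, p = 0.238), with an interval of -0.07 to 0.18 (95%) in the fit without a filter. At the other end of the gene cluster, Padi6, a deiminase of the oocyte, had a change of 0.02 (adjusted p = 0.943 from limma). Of the 5 neighbouring deiminase genes, Padi3 was lower and passed, and Padi1 was lower without overlap and did not pass. Padi4, Padi2 and Padi6 overlapped between genotypes. Padi2 and Padi6 lay near the linear value of 50, so little can be read from their small changes.

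**Figure D2:**
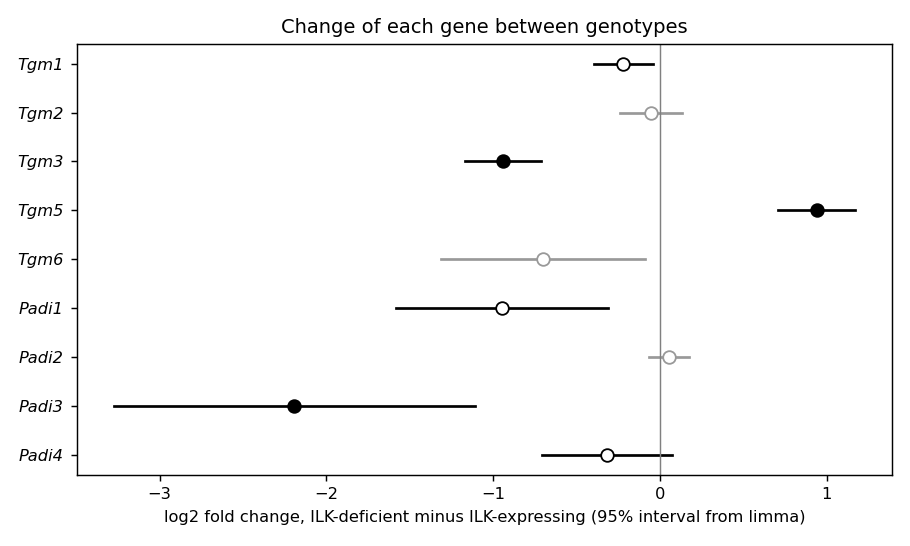
Change of each of the 9 genes (log2, ILK-deficient minus ILK-expressing, horizontal axis) with its 95% interval from limma. Filled circles passed at an adjusted p under 0.05, open black circles did not pass, and grey marks genes below the filter with the interval of the fit without a filter. Padi3 at -2.19 has the widest interval, and Tgm3 at -0.94 and Tgm5 at 0.94 stand on opposite sides of 0.

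Padi3, Padi1, Padi4 and Tgm6 were each highest on ILK-expressing replicate 4 and next highest on replicate 5, and so was the mean of the 7 hair cortex genes, at 8.66, 9.30, 8.97, 11.12 and 10.76 on ILK-expressing replicates 1 to 5. On ILK-deficient replicates 1 to 5 that mean was 6.68, 6.93, 7.20, 6.99 and 6.84, below every ILK-expressing array. Among the ILK-expressing arrays alone, Tgm3 was highest on replicates 4 and 3, and Tgm5 on replicates 5 and 4. After subtraction of the genotype means, Padi3 correlated over the 10 arrays with Tgm6 at r = 0.99, with Padi1 at 0.95 and with Padi4 at 0.87, and with Tgm3 at 0.33 and Tgm5 at 0.26. Without ILK-expressing replicates 4 and 5 (n = 8), r was 0.83 with Tgm6, -0.08 with Padi1, -0.09 with Padi4, -0.86 with Tgm3 and -0.55 with Tgm5. The correlations with Padi1 and Padi4 thus rested on ILK-expressing replicates 4 and 5, and those with Tgm3 and Tgm5 changed sign. Among the 8 arrays, Tgm6 was above the linear value of 50 only on ILK-expressing replicate 2 (log2 value 5.86). Little can therefore be read from the r of 0.83 with Tgm6. Padi2 had no such order, with r = -0.41 to Padi3 over the 10 arrays. These are descriptions of arrays that share a normalization, and whether the hair genes account for the members' values was not tested.

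**Figure D3:**
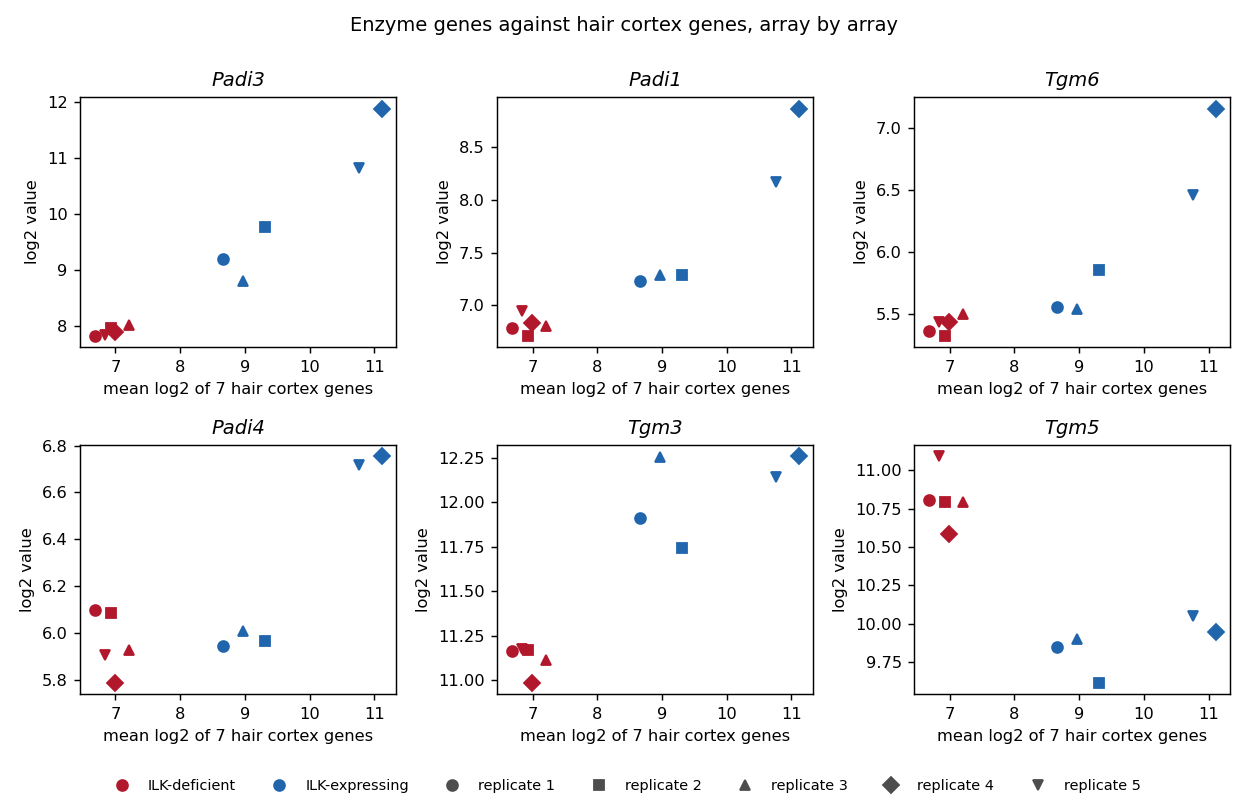
Log2 value of 6 of the genes (vertical axes) against the mean log2 value of 7 hair cortex genes (horizontal axes) on each array, ILK-deficient in red and ILK-expressing in blue. Padi3, Padi1, Padi4 and Tgm6 are highest on the ILK-expressing arrays with hair cortex means of 11.12 and 10.76. All ILK-expressing arrays lie above all ILK-deficient arrays for Padi3, Padi1, Tgm6 and Tgm3, and below them for Tgm5. Only Padi4 overlaps between genotypes.

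For each member that passed, the 5 most similar genes were taken by Pearson's r over the 10 arrays, among 18120 genes. Both genotypes enter these correlations, so they hold the genotype difference as well as the spread between mice. The profile of Padi3 was most like those of Lrrc15, Krt26 (an inner root sheath keratin), Crnn (cornulin), Krtap5-4 (a keratin-associated protein of hair) and Krt82 (a hair cuticle keratin), all at r = 0.99. The genes nearest to Tgm3 were Gclc, which encodes the catalytic subunit of glutathione synthesis, Cysltr1, a leukotriene receptor, Klk8, a serine protease of the epidermis, Aldh3b2 and Bdh1, at 0.97 to 0.98. Those nearest to Tgm5 were Hspa4l, Dync1li2, Enox1, Hr (the hairless corepressor) and Ptprj, at 0.98. No gene stood in more than 1 of the 3 sets. Tgm5 itself correlated with Tgm3 at -0.84 and with Padi3 at -0.72, and Tgm3 correlated with Padi3 at 0.83. With these values, no gene could correlate as highly as the listed ones with more than 1 of the 3 members, so the lack of shared genes was fixed in advance.

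Of the genes for proteins that transglutaminases cross-link, Tchh and 3 others were lower and the other 21 tested did not pass. The list held 28 genes, of which 25 were tested, 4 were lower and none was higher. Before adjustment, p was under 0.05 from limma for 7 genes in the lower direction and for none in the higher. The methods' analysis of variance called none higher and 2 lower. The genotypes did not overlap for 5 genes, all lower, against 6.33% of all probe sets tested in either direction. The median change was -0.13, against 0.00 over all probe sets tested. The 4 genes called lower were Prr9 (-4.34, adjusted p = 0.00211), a proline-rich protein, Tchh (-4.08, adjusted p = 0.00117), Crnn (-3.11, adjusted p = 0.0158) and Cnfn (-0.40, adjusted p = 0.0349), a cornified envelope protein, all from limma. Tchh had values of 6.84, 7.69, 8.38, 7.48 and 7.40 in ILK-deficient replicates 1 to 5, and 11.12, 11.63, 10.64, 12.82 and 11.97 in ILK-expressing replicates 1 to 5. Its genotypes did not overlap, and it was highest on the same ILK-expressing arrays as Padi3. The abundant keratins Krt1, at 14.05 in ILK-deficient and 14.12 in ILK-expressing epidermis, and Krt10, at 13.93 in ILK-deficient and 13.98 in ILK-expressing epidermis, had changes of -0.06 and -0.04 and did not pass (adjusted p = 0.753 and 0.858 from limma). Flg, the filaggrin gene, had no probe set of a single symbol and was not analysed here.

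Of 9 deiminase substrates, 7 were tested, 2 were lower and 1 was higher, with a median change of -0.06. Tchh and S100a3, which encodes an EF-hand protein found in the cuticle of hair, were lower. S100a3 had 6.66, 7.45, 7.40, 7.47 and 7.15 in ILK-deficient replicates 1 to 5, and 9.38, 10.00, 9.31, 11.14 and 10.89 in ILK-expressing replicates 1 to 5. As for Padi3, ILK-expressing replicates 4 and 5 were the highest of its arrays, and the change was -2.92 (adjusted p = 0.00304 from limma). Vim, which encodes the intermediate filament vimentin of mesenchymal and some other cells, was higher by 0.48 (adjusted p = 0.0185 from limma). The summed values of 8 fibroblast markers were 3747 to 6816 in ILK-deficient and 1718 to 5663 in ILK-expressing epidermis, and their part in the value of Vim was not tested.

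Tgm2 was below a linear value of 50 on every array, and 3 of 11 tested partners and matrix substrates of tissue transglutaminase were higher and none was lower, with a median change of 0.32. Ltbp1, a latent TGF-β binding protein, changed by 1.26 (adjusted p = 0.00693), Itga5, an integrin subunit, by 0.79 (adjusted p = 0.0239) and Nid1, a basement membrane protein, by 0.41 (adjusted p = 0.0264), all from limma. Adgrg1, an adhesion receptor that binds tissue transglutaminase, changed by 0.07 (adjusted p = 0.845) and Sdc4, a heparan sulfate proteoglycan, by 0.24 (adjusted p = 0.213). The count was 1 without ILK-deficient replicate 1 or 5 and without ILK-expressing replicate 2 or 4.

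Proteases that activate transglutaminases or process filaggrin, with their inhibitors, made a list of 13 genes, all tested, with 1 higher, 1 lower and a median change of -0.20. Lgmn (legumain) changed by 0.53 (adjusted p = 0.0404) and Spink5, which encodes a protease inhibitor of the granular layer, by -0.41 (adjusted p = 0.0308). Casp14 at -0.24 and Asprv1 at -0.13, both proteases of filaggrin processing, did not pass (adjusted p = 0.0738 and 0.355 from limma). With an array left out, the higher count was 1 without ILK-deficient replicate 1 or ILK-expressing replicate 3 or 5, and 0 without any of the others. The lower count was 1 without ILK-deficient replicate 3 or ILK-expressing replicate 3, and 0 without any of the others.

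Among 24 transcription factors of keratinocyte differentiation, 2 were higher and 1 was lower, with a median change of 0.04. Trp63 changed by 0.35 (adjusted p = 0.0204) and Tfap2c by 0.35 (adjusted p = 0.0241), and Dlx3, a homeobox factor of the hair matrix, by -0.80 (adjusted p = 0.0332), from limma. Tfap2a at 0.20 and Zfp750 at -0.05 did not pass (adjusted p = 0.188 and 0.877). The higher count was 0 without ILK-deficient replicate 1 or 2 and 1 without ILK-deficient replicate 5 or ILK-expressing replicate 4. The lower count was 0 without ILK-deficient replicate 1, 3, 4 or 5 or ILK-expressing replicate 2 or 4.

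**Figure D4:**
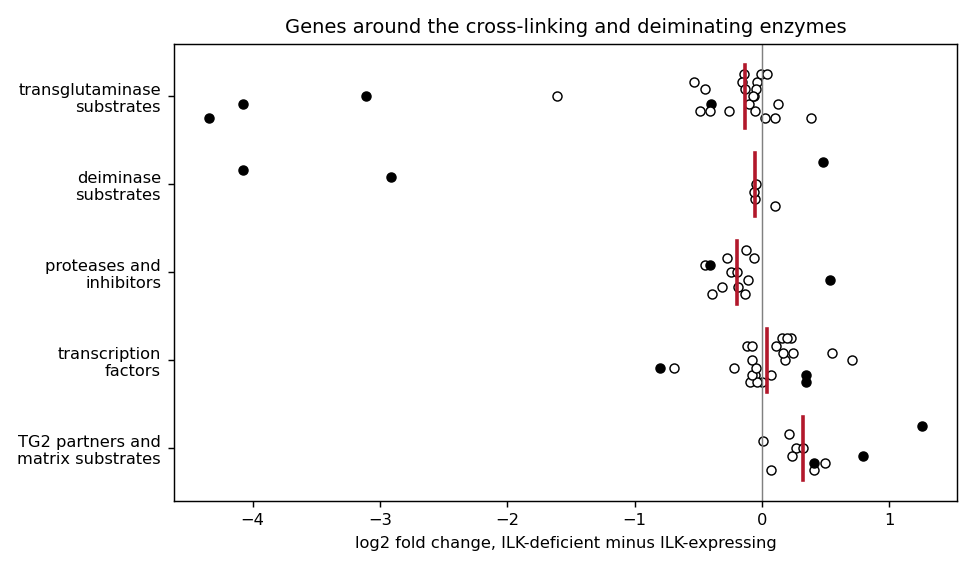
Change of each tested gene of 5 lists (log2, ILK-deficient minus ILK-expressing, horizontal axis), with filled points for genes that passed at an adjusted p under 0.05 and a red bar at the list's median. Prr9, Tchh, Crnn and S100a3 lie beyond -2, and the medians run from -0.20 for the proteases and inhibitors to 0.32 for partners and substrates of tissue transglutaminase.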

How the data were processed

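Epidermal RNA of 10 mice was hybridised to GeneChip Mouse Gene 1.0 ST Arrays. The deposited table gives a log2 value for each probe set on each array. The authors corrected background, normalized by quantiles and summarised probes, and the table's maker, GC-RMA or RMA, both named in the methods, is not stated. Values were used as deposited. Genotypes came from the labels.

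The 32046 probe sets that reached 50 on the linear scale on at least 5 of 10 arrays were fitted with limma 3.58.1 under R 4.3.3 (lmFit, then eBayes, no covariate), with Benjamini-Hochberg adjustment over all of them and a call at an adjusted p under 0.05. For a single gene, an exact permutation test was run over 126 splits of the arrays, whose smallest p is 0.00794. The fit was tested on simulated data with the same spread in both genotypes. That test does not cover unequal spreads, such as those of Padi3 (SD 0.0851 in ILK-deficient and 1.25 in ILK-expressing epidermis) and Padi1 (0.0856 and 0.725). P values set the difference between genotypes against the spread between these mice. The number of arrays limits the precision. The members and gene lists were chosen with earlier results of these data known. Named genes were all members and other family genes, of each list up to 4 past the test and up to 2 abundant ones not past it, and the 5 most similar to each member that passed. Alternatives changed the filter, the test, the scaling, the block, the arrays or the probe set per gene. Promoter windows, available for 8 members, are RefSeq GRCm38.p6. Single exons were not analysed here.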

Additional observations from a re-analysis of the deposited data

How the results depend on the processing

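Tgm3 and Tgm5 passed under all 22 alternatives, and Tgm1 under none. Padi3 kept its direction under all 22 and did not pass under 9, which were the methods' analysis of variance (-2.19, adjusted p = 0.0963), the replicate block (-2.19, adjusted p = 0.0694) and 7 of the 10 fits with an array left out (changes from -2.27 to -2.01 in those 7, and from -2.51 to -1.74 in all 10). Among the arrays with code prefix D, Padi1 passed at -0.48 (adjusted p = 0.0315), and Padi4 turned to 0.0024 (adjusted p = 0.997). The cause was not tested. The number of probe sets called was 1211 and became 686 by the methods' analysis of variance, 608 with the replicate block, 294 with code prefix D only and 597 to 1010 with an array left out. It was 1493 after quantile normalization again and 1693 when probe sets were averaged per gene, and lower calls, 311 in number, became 481 and 473 under these. The members called numbered 2 to 4. Among the gene lists, lower transglutaminase substrates numbered 2 to 5 and lower deiminase substrates 2 under all 22, while Vim was not called with code prefix D only, and neither the proteases nor the transcription factors had a call with the replicate block. Deviations of same-numbered arrays from their genotype means correlated at -0.30 to 0.11, with 1 of 5 over 0.1. In 0 of 5 cases did an ILK-deficient array correlate best with the ILK-expressing array of its own number. So few pairs cannot decide whether the replicate numbers mark a pairing. Low signal limits Tgm2 and Padi2, which lie near or below the linear value of 50 on every array, and Tgm6, which was below it on 7 of 10 arrays. Of 18 groups of 5 values, none held a single array far from the others by Dixon's test. That test looks for 1 far array and can miss 2, such as ILK-expressing replicates 4 and 5 for Padi1 and Padi4.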
